A study of Mus musculus with 15 samples.

Results

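The miR-297, miR-466, miR-467 and miR-669 families were followed through the 5 conditions of a miRNA profile of mouse pancreatic endocrine cell lines. The members are all assays whose name is miR- followed by one of these numbers, with any letter and any arm. There are 20 of them among 583 miRNA assays (the reference miR-26a is not counted). They comprise 3 miR-297 assays, 8 miR-466 assays, 8 miR-467 assays and 1 assay of the miR-669 family, miR-669a. The families were chosen by a contrast measured in these data, the ΔCt of untreated αTC1-6 against βTC1 at 24 h (steady state), so that contrast is described here without a test.

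These miRNAs are encoded in mouse by a long tandem array of related hairpins inside an intron of Sfmbt2, a Polycomb-group gene that is imprinted and expressed from the paternal allele in extraembryonic tissues. The array is a rodent feature, and its miRNAs are best known from placenta and embryonic stem cells. Many of its mature miRNAs are rich in UG or CA repeats and differ from each other at few positions, so that a PCR assay for one copy may also read its near relatives. In the RefSeq annotation of GRCm38.p6, 72 of the 82 mouse miRNA genes of these 4 numbers lie inside Sfmbt2. Several assays stand for many copies, with 10 genes for miR-467a and 12 for miR-669a. The rat assays, rno-miR-466b and rno-miR-466c, are designed on rat sequences and were run on mouse RNA, and the other 18 assays carry mouse names.

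αTC1-6 is a glucagon-producing line from a mouse pancreatic glucagonoma, and βTC1 is an insulin-producing line from a mouse insulinoma. The 5 groups, of 3 replicates each, were untreated αTC1-6 at 24 h and at 48 h, αTC1-6 given IL-1β (50 IU/ml), IFN-γ (1000 IU/ml) and TNF-α (1000 IU/ml) for 24 h or 48 h, and untreated βTC1 at 24 h. Each line is a single tumour line. The methods of the study describe the replicates as independent biological ones, so errors and p-values measure the spread between repeats of 1 line. TaqMan low density arrays were used for real-time PCR, with 11 of the members on card A and 9 on card B. The Ct of a well is the cycle at which its signal passes a threshold, so more miRNA gives a lower Ct and 1 cycle is 1 unit of log2. ΔCt is the Ct minus that of miR-26a in the same sample, and a log2 difference between groups is the difference of the negative ΔCt. An undetermined well carries a Ct of 40 in the normalized table. Levels are not compared between assays, whose efficiencies may differ.

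Across the 15 samples, 398 to 520 of the 583 assays had a Ct, miR-26a had a Ct between 17.0 and 19.0, and 278 assays had a Ct in every sample. The endocrine marker miR-375 had a Ct in all 15 samples, from 13.4 to 15.98. The pancreatic acinar miRNAs miR-216a, miR-216b and miR-217 had a Ct in all 3 βTC1 samples, from 21.6 to 27.0, and in none of the 6 αTC1-6 samples of 24 h. At 48 h, miR-216b had a Ct in all 3 untreated αTC1-6 samples, from 30.2 to 36.7, and in 1 treated sample, at 31.9, miR-216a had one in 1 treated sample, at 20.9, and miR-217 in none. The blood miRNAs miR-142-3p, miR-142-5p, miR-223 and miR-451 had a Ct no lower than 28.6 in any sample. The mesenchymal miR-143 was undetermined in all βTC1 and all untreated αTC1-6 samples of 24 h. It had a Ct in 2 treated αTC1-6 samples of 24 h and in all 6 samples of 48 h (27.7 to 32.1). MiR-145 had a Ct in all 15, from 28.0 to 31.0. These marker values are those of the normalized table. In it, card A wells of 24 h were set to undetermined more often than those of 48 h, as described below. The part of these marker differences in the values below was not tested.

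At steady state, members had a Ct more often in αTC1-6 than in βTC1. In the normalized table, 16, 19 and 18 of the 20 members had a Ct in the 3 untreated αTC1-6 samples of 24 h, against 9, 10 and 11 in the 3 βTC1 samples. In this table the gap was wider on card A, where 8, 10 and 9 of the 11 members had a Ct in αTC1-6 and 1, 2 and 4 in βTC1. On card B, 8, 9 and 9 of 9 members had a Ct in αTC1-6 and 8, 8 and 7 in βTC1. A card B pair was counted as having a Ct when only 1 of its 2 wells had one. In βTC1 this held for all 3 pairs of miR-466b-3-3p and of miR-466d-5p, and for 2 pairs of miR-466a-3p. The other deposited table, which was not normalized and holds the Ct values (here the non-normalized table), differed. There the βTC1 samples had a Ct for 8, 8 and 9 of the 11 card A members, against 11 in each αTC1-6 sample, and for 7, 5 and 5 of the 9 card B members, against 9, 9 and 8. The 2 tables therefore give different pictures of the same samples, and the members are described in both. For the 6 card B members with 2 wells, the non-normalized table repeats the first well in both rows, so their second wells are not seen there.

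In the normalized table, 6 members were detected in every untreated αTC1-6 sample of 24 h and undetermined or blank in every βTC1 sample, namely miR-297b-5p, miR-297c, miR-467c, miR-467d, miR-467e* and rno-miR-466c. Over all 583 assays the share with this pattern was 3.26%. In the non-normalized table it was seen for 3 members, miR-466a-3p, miR-467d and miR-467e*, against 1.72% of all assays. For miR-466a-3p, the βTC1 Ct values of 7.3 and 22.2 in the normalized table came from second wells, which the non-normalized table does not show. This contrast chose the families, so nothing is read from these counts. For miR-467c, the Ct was 23.9, 22.9 and 22.4 in untreated αTC1-6 at 24 h, and all 3 βTC1 wells were undetermined. In the non-normalized table the same βTC1 wells had a Ct of 27.0, 25.3 and 27.8. The groups did not overlap in either table, but the log2 difference was 16.82 with the wells at a Ct of 40 and 3.51 in the non-normalized table. For miR-467d, the αTC1-6 Ct was 26.0, 24.8 and 25.6, and the βTC1 wells were undetermined in both tables. For miR-467e*, the other arm of the miR-467e hairpin, the αTC1-6 Ct was 27.0, 22.2 and 23.8, and the βTC1 wells were again undetermined in both tables. MiR-467d and miR-467e* were the only members with this pattern in both tables, and their differences, 14.39 for miR-467d and 15.53 for miR-467e*, depend on the entry at 40.

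The other members of that group of 6 did not keep the pattern. For rno-miR-466c, the αTC1-6 Ct was 31.1, 27.2 and 28.8, and the undetermined βTC1 wells had a Ct of 28.6, 30.2 and 26.5 in the non-normalized table, so that the log2 difference went from 10.82 to -0.75. For miR-297c, the αTC1-6 Ct was 30.0, 27.0 and 26.5, and of the βTC1 wells 1 was blank and 2 were undetermined. In the non-normalized table these 3 wells read 27.8, 23.8 and undetermined, the first αTC1-6 well read 26.0 in place of 30.0, and the lines overlapped. For miR-297b-5p, the αTC1-6 Ct was 30.0, 28.1 and 29.3, among the latest of the members, and all βTC1 wells were undetermined. The non-normalized table gave 1 of these βTC1 wells a Ct of 7.1 and left the others undetermined. The log2 difference of -0.16 there, against 10.76 in the normalized table, rests on that well.

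**Figure D1:**
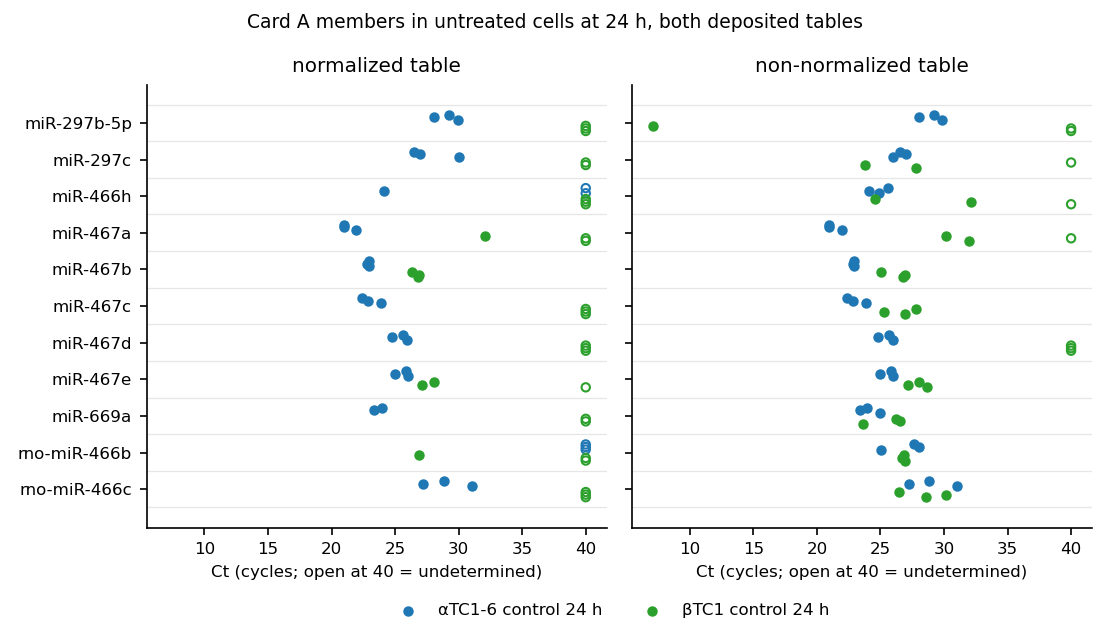
Ct (x axis, cycles) of the 11 card A members in untreated αTC1-6 (blue) and βTC1 (green) at 24 h, 3 samples each, in the normalized table (left) and the non-normalized table (right). Open points at 40 are undetermined wells, and blank wells are not drawn. Of the βTC1 points at 40 on the left, 16 have a Ct on the right, none of them from miR-467d.

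Wells of members were set to undetermined between the tables mostly in βTC1. Of 25 card A member wells of βTC1 with a Ct in the non-normalized table, 16 (64.0%) were undetermined in the normalized table and 2 were blank. Among the other card A miRNA assays, 185 of 988 such βTC1 wells (18.7%) were undetermined. By sample, the share was 62.5%, 75.0% and 55.6% for members against 18.3%, 19.0% and 18.9% for the others. In αTC1-6 at 24 h, members lay below the other assays, at 5 of 33 wells (15.2%) against 21.5% in untreated cells and 6 of 33 (18.2%) against 23.5% in treated cells. At 48 h, 0 of 64 member wells and 1 of 1884 other wells were set to undetermined. Why wells were set to undetermined is not given in the sources used here and was not tested.

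**Figure D2:**
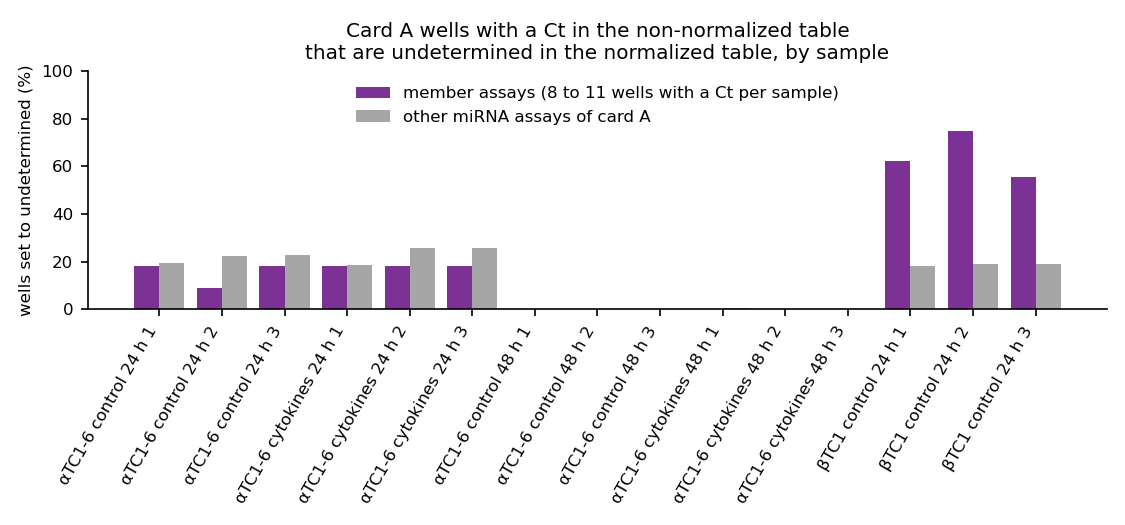
Percentage (y axis) of card A wells with a Ct in the non-normalized table that are undetermined in the normalized table, for each of the 15 samples (x axis), in members (purple) and in the other miRNA assays (grey). Members reach 55.6% to 75.0% in the 3 βTC1 samples and no more than 18.2% in the αTC1-6 samples.

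The edits fell on named members as follows. MiR-467a, a miRNA of 10 genomic copies, had a Ct of 21.9, 21.0 and 20.9 in untreated αTC1-6 at 24 h. Its βTC1 wells were undetermined, undetermined and at 32.0 in the normalized table, and at 32.0, undetermined and 30.1 in the other. The lines did not overlap in either table, and the log2 difference was 15.91 or 12.61. MiR-467b, known to target lipoprotein lipase in macrophages, had a Ct in all 3 βTC1 samples of both tables, at 26.8, 26.9 and 26.3 in the normalized table, against 23.0, 22.8 and 22.9 in αTC1-6. Its log2 difference changed little between the tables, from 3.63 to 3.20. MiR-467e also stayed higher in αTC1-6 in both tables, with βTC1 wells undetermined, at 27.1 and at 28.0, and the undetermined well at 28.6 in the non-normalized table. Its difference fell from 5.97 to 2.18.

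The remaining card A members had no usable contrast in the normalized table. MiR-669a, which has been studied in muscle differentiation, had a Ct of 23.4 and 23.9 in αTC1-6 with 1 blank well, and its βTC1 wells were blank or undetermined. In the non-normalized table it read 25.0, 23.4 and 23.9 in αTC1-6 and 23.6, 26.5 and 26.2 in βTC1, and the lines overlapped. MiR-466h, linked to apoptosis in cultured cells, was undetermined in 5 of the 6 αTC1-6 samples of 24 h, where the non-normalized table held Ct values from 24.0 to 26.1. Its βTC1 wells there read undetermined, 32.1 and 24.6, a log2 difference of 7.22 with overlap. Rno-miR-466b was undetermined in all 6 of these samples, with Ct values from 25.1 to 28.0 in the non-normalized table. Its βTC1 wells read 26.9, 26.7 and 26.9 there, within the αTC1-6 range.

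The card B members behaved differently among themselves. MiR-466d-3p had the lowest Ct among the miR-466 assays and did not separate the lines, with 19.1, 19.0 and 17.5 in αTC1-6 and 18.2, 17.9 and 18.0 in βTC1. The opposite arms of the miR-467a and miR-467b hairpins had a Ct in all samples. MiR-467a* read 22.0, 21.0 and 21.0 in αTC1-6 and 23.0, 22.0 and 22.3 in βTC1, a log2 difference of 0.97 with 1 βTC1 value inside the αTC1-6 range of ΔCt. MiR-467b* read 26.1, 25.0 and 24.9 in αTC1-6 and 28.0, 27.0 and 27.7 in βTC1, a log2 difference of 2.06 with no overlap. The assay for the opposite arm, miR-467a on card A, read 30.1 or later, or undetermined, in every βTC1 well of either table.

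MiR-466c-5p lay in the opposite direction. Its ΔCt was 9.22, 7.21 and 15.02 in untreated αTC1-6 at 24 h and 0.407, 3.89 and 5.10 in βTC1. Every βTC1 sample was higher in abundance, with a log2 difference of -7.35. Its duplicate wells differed by several cycles in some samples, as described below.

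Of the 17 members with a Ct in at least 3 of the 6 samples, 11 lay entirely above βTC1 in αTC1-6 and 1, miR-466c-5p, entirely below. Over all 480 assays these shares were 17.3% and 28.5%. The same filter and the same entry for undetermined wells were applied to all assays. Of the 11, 6 had no Ct in βTC1, so the filter and that entry placed them above. MiR-466d-5p had an undetermined well in every βTC1 pair, and it was not above when such wells were left out of a pair. With values undetermined in all wells of an assay as missing, 5 of the 11 members then tested lay above. The median log2 difference of the 11 was 2.06. This setting was applied after the duplicate wells had been averaged. Pairs with 1 undetermined well therefore kept the entry for it, and miR-466d-5p was among the 5. Read from the other table, 8 of 20 members lay above and 1 below, against 14.5% and 22.3% of the assays tested there. Of these 8, 3 had no Ct in βTC1 in that table. The median log2 difference of the members was 6.20 (n = 17) in the normalized table and 2.69 (n = 20) in the non-normalized table, against -0.52 over all assays in each. On card A alone the members' median went from 11.46 to 3.20, and on card B it was 2.06 in both. The miRNAs of the Dlk1-Dio3 domain, another large imprinted miRNA cluster, had medians of 5.65 and 5.07 in the same tables. The contrast was used to choose the families, so these are descriptions.

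**Figure D3:**
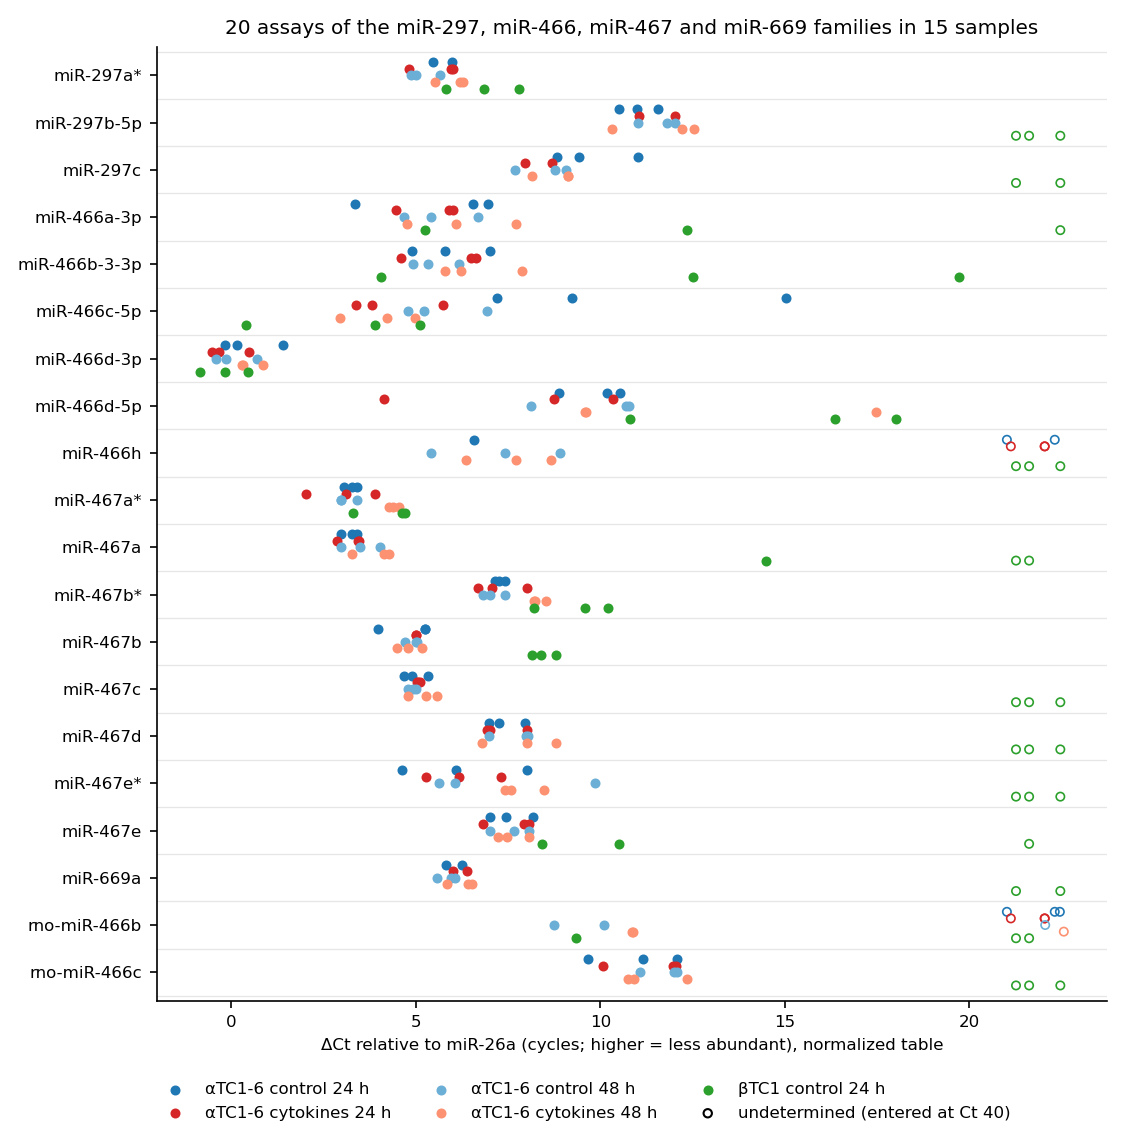
ΔCt relative to miR-26a (x axis, cycles, normalized table, higher is less abundant) of the 20 members (rows) in the 15 samples, coloured by group. Open points are values undetermined in all wells of the assay, entered at a Ct of 40, and blank wells are not drawn. Filled points of card B include duplicate pairs with an undetermined well, averaged with that well at 40. The 4 αTC1-6 groups lie close together for most members, and most open points are βTC1.

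Within αTC1-6, 13 members had a Ct in all 12 samples. Their SD of ΔCt over these samples ran from 0.255 for miR-467c to 3.32 for miR-466c-5p, against a median of 0.708 over the 310 assays with a Ct in all 12. MiR-467c was the steadiest, with a mean ΔCt of 5.04 and Ct values from 21.8 to 24.0. The other miR-467 assays of card A with a Ct in all 12 had SD values of 0.465 for miR-467a, 0.485 for miR-467e and 0.646 for miR-467d. Those of card B had 0.616 for miR-467b*, 0.722 for miR-467a* and 1.49 for miR-467e*. In the 12 αTC1-6 samples, the highest Pearson correlation of ΔCt among the member pairs was 0.961, for miR-467a* and miR-467b*. Both are on card B and have the same miR-26a value subtracted in each sample. The lowest was -0.623, for miR-466a-3p and miR-467e. The median over the 78 pairs of these 13 members was 0.299, close to the 0.319 of all assay pairs.

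Card B carries 6 members in 2 wells, and these give the spread between wells of a sample. In αTC1-6 the median absolute difference between the wells was 0.132 cycles for miR-297a* and 0.402 for miR-466d-3p, against 0.286 over the other assays with 2 wells. It was 0.595 for miR-466a-3p and 0.621 for miR-466b-3-3p. It was 1.75 for miR-466c-5p and 2.74 for miR-466d-5p, the widest of the 6. In βTC1 the wells of several members contradicted each other. The wells of miR-466b-3-3p read 21.8 and undetermined, undetermined and 5.6, and undetermined and 34.5 in the 3 samples. Those of miR-466a-3p read undetermined and 7.3, undetermined and 22.2, and undetermined in both wells. Those of miR-466d-5p had 1 undetermined well in each of the 3 pairs. The wells of miR-466c-5p differed by a median of 5.40 cycles in βTC1, with 23.1 and 14.5 in the first sample. The log2 differences of these 4 members at steady state therefore depend on how a pair is averaged. The non-normalized table repeats 1 value in both rows of all 150 assays with 2 wells, so it does not show these differences.

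**Figure D4:**
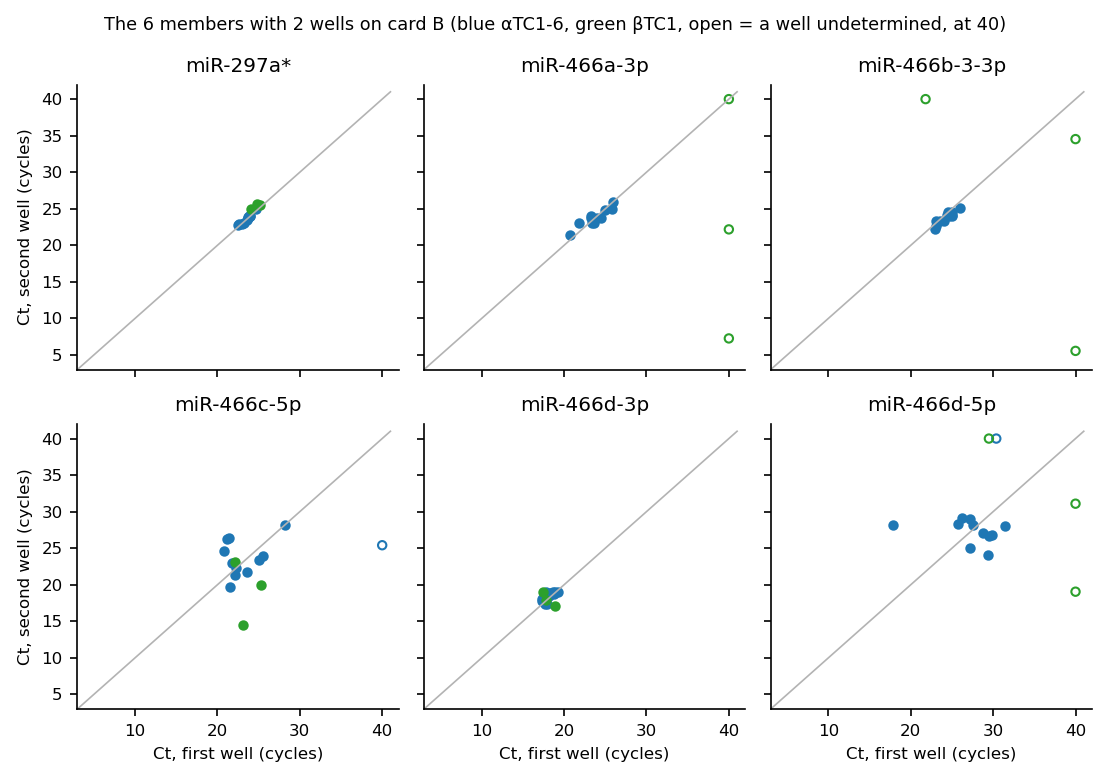
Ct of the second well (y axis, cycles) against the first (x axis) on card B, normalized table, for the 6 members with 2 wells, in αTC1-6 (blue) and βTC1 (green). Open points have an undetermined well, drawn at 40, and the line marks equal values. MiR-297a* and miR-466d-3p lie within 1.86 cycles of equal values in every sample, and the βTC1 points of miR-466a-3p, miR-466b-3-3p and miR-466d-5p all have an undetermined well.

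To see whether inflammatory cytokines altered these miRNAs, treated αTC1-6 were compared with their untreated controls. At 24 h post-treatment (PT) no member passed the test. Of 18 members tested, 0 passed (Limma test, Benjamini-Hochberg adjusted p-values over all assays of a card), against 0.225% of the 445 assays tested. At an unadjusted p under 0.05 there was 1 member, against 4.49% of all assays. The median log2 difference of the members was 0.01, against -0.15 over all assays, with 9 members above 0 and 9 below. A two-sided exact permutation test of 3 against 3 samples cannot give a p below 0.1.

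The member past the unadjusted threshold at 24 h was miR-466c-5p. Its ΔCt was 9.22, 7.21 and 15.02 in controls and 3.38, 3.81 and 5.73 after cytokines, and every treated sample was higher in abundance than every control. The log2 difference was 6.17 (SE 2.13), with an adjusted p of 0.806 by limma, and between 0.368 and 0.974 over the alternatives tried. The difference was 3.74 when undetermined wells were left out of a pair. In the third control, the wells read undetermined and 25.4. MiR-297c also did not overlap, at 11.03, 9.43 and 8.81 in controls and 8.70 and 7.97 in the treated samples with a value, 1 being blank (log2 difference 1.42, SE 0.82, limma adjusted p 0.963). The difference was 0.79 without replicate 1 of the controls and with the replicate block, and 0.58 in the non-normalized table, where the groups overlapped. Together they were 2 of 18 members, against 6.07% of all assays not overlapping and higher, and 0 members were lower without overlap, against 7.19%. The other 16 members had differences between -0.52 and 2.12, and 15 of these lay within 1 cycle of 0. For 9 of the 16 the 95% interval stayed within 2 cycles of 0 on either side, as for miR-467c (-0.11, interval -0.93 to 0.72) and miR-467a (-0.04, interval -0.92 to 0.84). MiR-466h and rno-miR-466b were not tested, with a Ct in 1 and 0 of the 6 samples.

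At 48 h PT all 20 members were tested and 0 passed by limma, against 0.562% of 534 assays. At an unadjusted p under 0.05 there were 2, against 11.2% of all assays. These were the star arms miR-467a* and miR-467b*, both lower after cytokines. For miR-467a*, ΔCt was 2.98, 3.40 and 2.97 in controls and 4.38, 4.28 and 4.55 in treated cells. Every treated sample was above every control in ΔCt, so lower in abundance, with a log2 difference of -1.28 (SE 0.29, interval -2.02 to -0.54, limma adjusted p 0.124). For miR-467b*, ΔCt was 6.998, 7.42 and 6.82 in controls and 8.21, 8.24 and 8.54 in treated cells. The log2 difference was -1.25 (SE 0.31, interval -2.04 to -0.46, limma adjusted p 0.133). They were the 2 of 20 members that did not overlap and were lower, against 17.2% of all assays.

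The scaling moved these values. Relative to miR-26a, the median log2 difference at 48 h was -0.51 over all assays and -0.83 over those of card B. Relative to U6 and small nucleolar RNAs the difference of miR-467a* was -0.65 and that of miR-467b* -0.61, and with each card centred on its median they were -0.05 and -0.01. The median of the 20 members was -0.40 relative to miR-26a, with 17 below 0, and 0.03 and 0.25 under the other scalings, against -0.06 and 0.23 over all assays. The opposite arms were read on card A. MiR-467a had a difference of -0.40 (SE 0.46, limma adjusted p 0.829) and miR-467b of 0.10 (SE 0.32, limma adjusted p 0.923). The other 18 members lay between -2.37 and 1.60, and for 11 of them the 95% interval stayed within 2 cycles of 0. The ends of this range were miR-466d-5p and miR-466c-5p, at 0.39 and 0.03 in the non-normalized table, which lacks their second wells. In the second treated sample the wells of miR-466d-5p read 30.4 and undetermined. The widest interval was that of rno-miR-466b, which was undetermined in the third sample of each group.

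**Figure D5:**
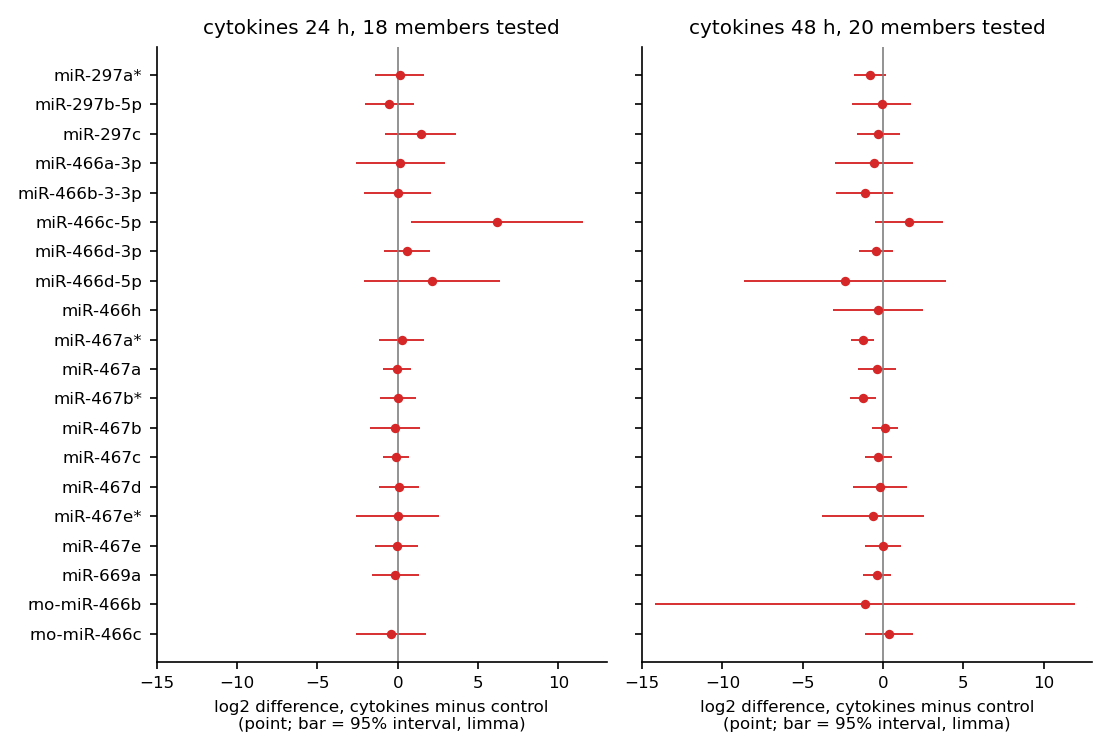
Log2 difference of treated minus untreated αTC1-6 (x axis, relative to miR-26a) at 24 h (left, 18 members tested) and 48 h (right, 20 tested), with 95% intervals from limma (bars), 3 samples per group. The interval of miR-466c-5p at 24 h and those of miR-467a* and miR-467b* at 48 h exclude 0 before adjustment, and no member passed after it.

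Whether the cytokine effect differed between the time points was tested as an interaction, 48 h minus 24 h, over the 12 αTC1-6 samples. Of 19 members tested, 0 passed by limma, against 0.21% of 477 assays, and 2 had an unadjusted p under 0.05, against 3.98%. For miR-467a* the effect at 48 h minus that at 24 h was -1.52 (SE 0.62, limma adjusted p 0.526), and for miR-467b* it was -1.27 (SE 0.52, limma adjusted p 0.526). With cards centred on the median these values were -0.12 and 0.14. At 24 h itself these assays had differences of 0.24 (SE 0.55) and 0.02 (SE 0.45). All 9 card B members had a negative interaction value, with a median of -1.14, and over all card B assays the median was -1.01.

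Untreated αTC1-6 of 48 h were compared with those of 24 h, to show how far the members moved in culture without cytokines. Of 19 members tested 0 passed by limma, against 5.93% of 489 assays, and 0 had an unadjusted p under 0.05, against 8.79%. Wells had been set to undetermined in the 24 h controls (21.5% for the other card A assays) and in 0 of 926 such wells of the 48 h controls. The part of these edits in the shares over all assays was not tested. The median log2 difference was 0.06, against -0.01 over all assays. MiR-466h had the largest value, 9.39 (SE 4.44, limma adjusted p 0.594), where 2 of the 3 controls of 24 h were undetermined in the normalized table. From the non-normalized Ct values it was -0.46. Its ΔCt at 48 h had an SD of 1.75, and 4 of the 6 samples had a Ct in the normalized table. MiR-466c-5p was higher at 48 h in every sample (4.83, SE 2.11, limma adjusted p 0.869), and it was the only member of 19 that did not overlap, against 10.8% of assays not overlapping and higher. The 24 h controls are the same samples as in the steady state and 24 h cytokine contrasts, so these values of miR-466c-5p share them. The other 17 members lay between -0.94 and 1.25, and for 11 of them the 95% interval stayed within 2 cycles of 0.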

How the data were processed

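MiRNAs of 15 samples were measured on TaqMan rodent low density cards A and B. In the deposited normalized table the values are ΔCt, which is on a log2 scale, and the authors subtracted miR-26a to make them. The non-normalized table holds Ct values as deposited by the authors. A table of the authors' own fold changes was not used. Software versions of the upstream steps are not given in the sources used here. The methods of the study name multiple reference genes, and how these relate to miR-26a alone is not given there.

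Ct values were recovered by adding the Ct of miR-26a. Undetermined wells were set to a Ct of 40, blank wells were left out and duplicate wells were averaged with an undetermined well at 40. Assays needed a Ct in at least as many samples as lacked one. For each comparison limma 3.58.1 (R 4.3.3) was run on −ΔCt of all assays in the groups compared. Tests were two-sided, and p-values were adjusted separately for each card by the Benjamini-Hochberg method and called under 0.05. Tables were handled in Python 3.11.15 with pandas 2.3.3 and numpy 2.4.6. The fit was also run on simulated data, made only from assays with a Ct in every sample compared. Undetermined and blank values are therefore not covered by that simulation.

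In the cytokine comparisons replicate numbers come from the labels, and same-numbered samples deviated together (r from 0.338 to 0.539 at 24 h and from 0.528 to 0.621 at 48 h), so a fit with the number as a block was run as well. In the comparison of controls r lay between -0.03 and 0.09. Alternatives were the other table, 3 other scalings, 2 treatments of undetermined wells, 2 filters and the first of the duplicate wells. Other fits and leaving out each sample were also tried. The 2 treatments and the 2 filters were applied after the duplicate wells had been averaged. Omitting wells with a Ct under 12 and averaging the duplicate wells that have a Ct were chosen after seeing the data. The members and lists were chosen with earlier results of these data known. Values in every sample are given for members with a Ct in all αTC1-6 and no βTC1 samples, those that did not overlap under cytokines with a Ct in all 6 samples, and the assay with the lowest Ct of a family among those with a Ct in all 15. Other members given by sample, miR-297c under cytokines included, fall outside this rule and were picked with their values known. The number of cards limits the precision.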

Additional observations from a re-analysis of the deposited data

How the results depend on the processing

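The count of members passing the test was 0 under all alternatives at 24 h, at 48 h and for the interaction, the replicate block included, with lowest adjusted p-values (limma) of 0.368, 0.0644 and 0.21. For controls of 48 h over 24 h it was 0 except without replicate 2 of the 24 h controls, the only one of them with a Ct for miR-466h in the normalized table. Then miR-466h was called, with a log2 difference of 14.4 and an adjusted p of 0.00418 by limma. With the replicate block, where same-numbered samples are paired, the count was 0 and the lowest adjusted p was 0.368 at 24 h and 0.107 at 48 h.

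The median of members at 48 h under cytokines was 0.026 with U6 and small nucleolar RNAs as reference and 0.25 with cards centred on the median, and -0.72 to -0.20 leaving out each sample. For controls of 48 h over 24 h it was 0.33 and -0.22 under these scalings, and -0.11 to 0.37 leaving out each sample, the highest without replicate 2 of 48 h. At 24 h under cytokines it stayed between -0.10 and 0.34 leaving out each sample. The interaction value of miR-467b* was 0.14 with cards centred on the median.

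At steady state, the median of 6.20 became 2.06 with undetermined wells as missing (11 members), 2.06 with a Ct in every sample (7 members) and 10.76 with wells under a Ct of 12 omitted, and lay between 3.20 and 8.51 leaving out each sample. Undetermined wells as missing and a Ct in every sample were applied after the duplicate wells had been averaged. Pairs with 1 undetermined well therefore kept the Ct entered for it. The count of members entirely above βTC1, 11, became 5 with undetermined wells as missing, miR-466d-5p included, and 5 to 14 leaving out each sample. The values of 5, 7 and 5 came without αTC1-6 replicates 1, 2 and 3, where members with no Ct in βTC1 fail the filter and 11 are tested. The count with a Ct in all αTC1-6 and no βTC1 samples, 6, was 3 in the non-normalized table (miR-466a-3p, miR-467d and miR-467e*) and 6 to 7 leaving out each sample. Log2 differences in that table were -0.16 for miR-297b-5p and -0.75 for rno-miR-466c. The value of miR-297b-5p rests on 1 βTC1 well at a Ct of 7.1, its other βTC1 wells being undetermined in both tables. With 3 samples per group, intervals of several cycles remain for the assays whose wells disagree.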

Other observations

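Many Ct values of the normalized table lay close to a whole number of cycles. Among members in 1 well, 85 of 163 wells with a Ct (52.1%) were within 0.1 cycle of a whole number, and among the other assays in 1 well 2580 of 4762 (54.2%) were. A uniform spread would give 20%. Among assays in 2 wells the shares were 53 of 166 (31.9%) for members and 1327 of 3535 (37.5%) for the others. What causes this was not tested.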
